A study of Mus musculus with 18 samples.

Results

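The laminin chains, the subunits of the main cell-binding glycoproteins of basement membranes, were followed through heart, kidney and tail fibroblasts of the mouse. The members were the 9 genes Lama1, Lama2, Lama3, Lama4, Lama5, Lamb1, Lamb2, Lamb3 and Lamc1, each matched by its symbol in GENCODE mouse release 21 to a single Ensembl row, of 38924 genes in the table. All 9 passed the filter on low counts and were among the 16577 genes tested. RNA was sequenced in 18 libraries, 3 in each of 6 groups. HFs, KFs and TFs were fibroblasts of heart, kidney and tail recovered from under the kidney capsule, and HFc, KFc and TFc were the cultured controls of the same organs. The donors were described as male Rosa mT/mG mice, 10 weeks old. In these mice nearly every cell carries a membrane-bound TdTomato, so the colour marks the donor and not the cell type. After 10 days in culture a share of the cells was placed in gelatin foam under the kidney capsule of C57BL/6J mice aged 10 to 11 weeks. The paper calls these recipients syngeneic. After 3 further days living cells negative for CD45, a leukocyte surface protein, and positive for TdTomato were sorted. The rest had been replated and stayed in culture for those 3 days. The gate held no fibroblast marker. The transplanted cells were in addition taken out of the kidney and sorted, so the new site and that handling cannot be told apart.

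Levels are in CPM, the counts of a gene scaled to a common library total, with library sizes adjusted by the trimmed mean of M values, and library totals lay between 17927838 and 32245168 counts. The libraries of a group were described as biological replicates, without a statement of whether these were separate donors, cultures or transplants, so p-values measure the spread between these libraries. The library labelled KFs replicate 3 stood apart. It held Xist, the RNA of the inactive X chromosome, at 1491 CPM, against at most 0.404 CPM in the other 17 libraries, and 4 Y-linked genes at 0.721 CPM in sum, against 174.9 to 229.8 CPM, although all donors were described as male. Its 8 fibroblast markers summed to 17834 CPM, against 92877 and 69085 CPM in the other KFs libraries and 12272 to 13048 CPM in KFc. Of the 17834 CPM, the collagen genes Col1a1, Col1a2 and Col3a1 held 8715, 4528.5 and 4257 CPM. The 7 markers of simple epithelium (keratins, Epcam, Cdh1, Cldn7 and Esrp1) summed to 132.0 CPM in this library, against 22.2 and 19.6 CPM in the other KFs libraries. The changes of the members between KFs and KFc are therefore given with and without this library. Other results with KFs, among them marker counts and chain sums, include it unless stated.

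Marker genes of cell types moved with the state, and are counted by the rule for a change used below. Of 8 fibroblast markers 6, 6 and 5 rose in heart, kidney and tail, with sums of 73088 to 122941 CPM in HFs and 30808 to 37377 CPM in TFs against 12272 to 15998 CPM in the cultured groups, while Thy1, which marks many fibroblasts, fell in heart from 126.8 to 33.8 CPM (log2 -1.91) and was 150.1 CPM in TFs and 240.1 CPM in TFc. Of 12 proximal tubule markers 12, 10 and 12 rose and none fell. Their sum was 122.9 to 1264 CPM in HFs against 22.4 to 25.4 CPM in HFc, and 143.7 to 341.2 CPM in TFs against 19.5 to 21.9 CPM in TFc. In the kidney cells it was 64.6 to 133.1 CPM in KFs and 103.4 to 111.7 CPM in KFc, where Lrp2 alone was 96.5 CPM, and the median log2 difference of the list was 6.04. Kap, Pck1 and Slc27a2 were at 0 in all cultured libraries. Of 6 markers of the loop, distal tubule and collecting duct 6, 4 and 5 rose. Of 6 endothelial markers 5, 3 and 3 rose and 1 fell, in kidney. Of 6 smooth muscle and pericyte markers 4, 5 and 4 fell, among them Acta2 in heart (2072 CPM in HFc, 574.2 CPM in HFs). In heart 2 rose, the pericyte genes Rgs5 (5.43 to 11.5 CPM) and Cspg4 (4.36 to 11.5 CPM). Of 5 macrophage and leukocyte markers 3 fell in kidney and 3 in tail, with sums of 8.93 to 48.3 CPM in KFs against 147.2 to 165.5 CPM in KFc and 16 to 16.8 CPM in TFs against 50.5 to 55.0 CPM in TFc. The 5 keratinocyte markers summed to 1.37 to 7.45 CPM, the highest in KFs replicate 3. The part of these other cell types in the laminin values was not tested.

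A laminin is a trimer of an alpha, a beta and a gamma chain wound together along a coiled coil. The trimers are secreted, join into a sheet through their short arms, and are tied to the cell by the globular end of the alpha chain, which integrins and dystroglycan bind, and to type IV collagen by nidogen, which binds the gamma chain encoded by Lamc1. The alpha chain decides much of where a laminin is found. The product of Lama2 is best known from muscle, that of Lama4 from small vessels and mesenchymal cells, that of Lama5 from epithelia and kidney, and those of Lama3 and Lamb3 from the attachment of the epidermis.

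A few of the chains dominated. Levels were taken per kilobase of exon to compare genes, whose order can depend on the exon length used. On this scale Lamc1 had 30.6 to 153.5 CPM, Lamb1 22.3 to 104 CPM, Lamb2 28.9 to 86.9 CPM, Lama4 8.42 to 66.5 CPM and Lama2 3.52 to 25.1 CPM as group means. Lama5 had 1.64 to 18 CPM, Lama1 0.0293 to 2.07 CPM, Lama3 0.0257 to 0.383 CPM and Lamb3 0.0718 to 0.57 CPM on the same scale. In KFc Lamb1 was below Lamb2 on it (48.1 against 61.3 CPM). By the longest transcript Lamb1 was above Lamb2 in KFc (80.9 to 83.6 against 65.0 to 67.8 CPM per kilobase). Heart fibroblasts held the highest group mean of Lama2, Lama4, Lamb1 and Lamc1. Cultured kidney fibroblasts had the highest mean of Lama5, and cultured tail fibroblasts the highest mean of Lamb2 (in CPM).

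**Figure D1:**
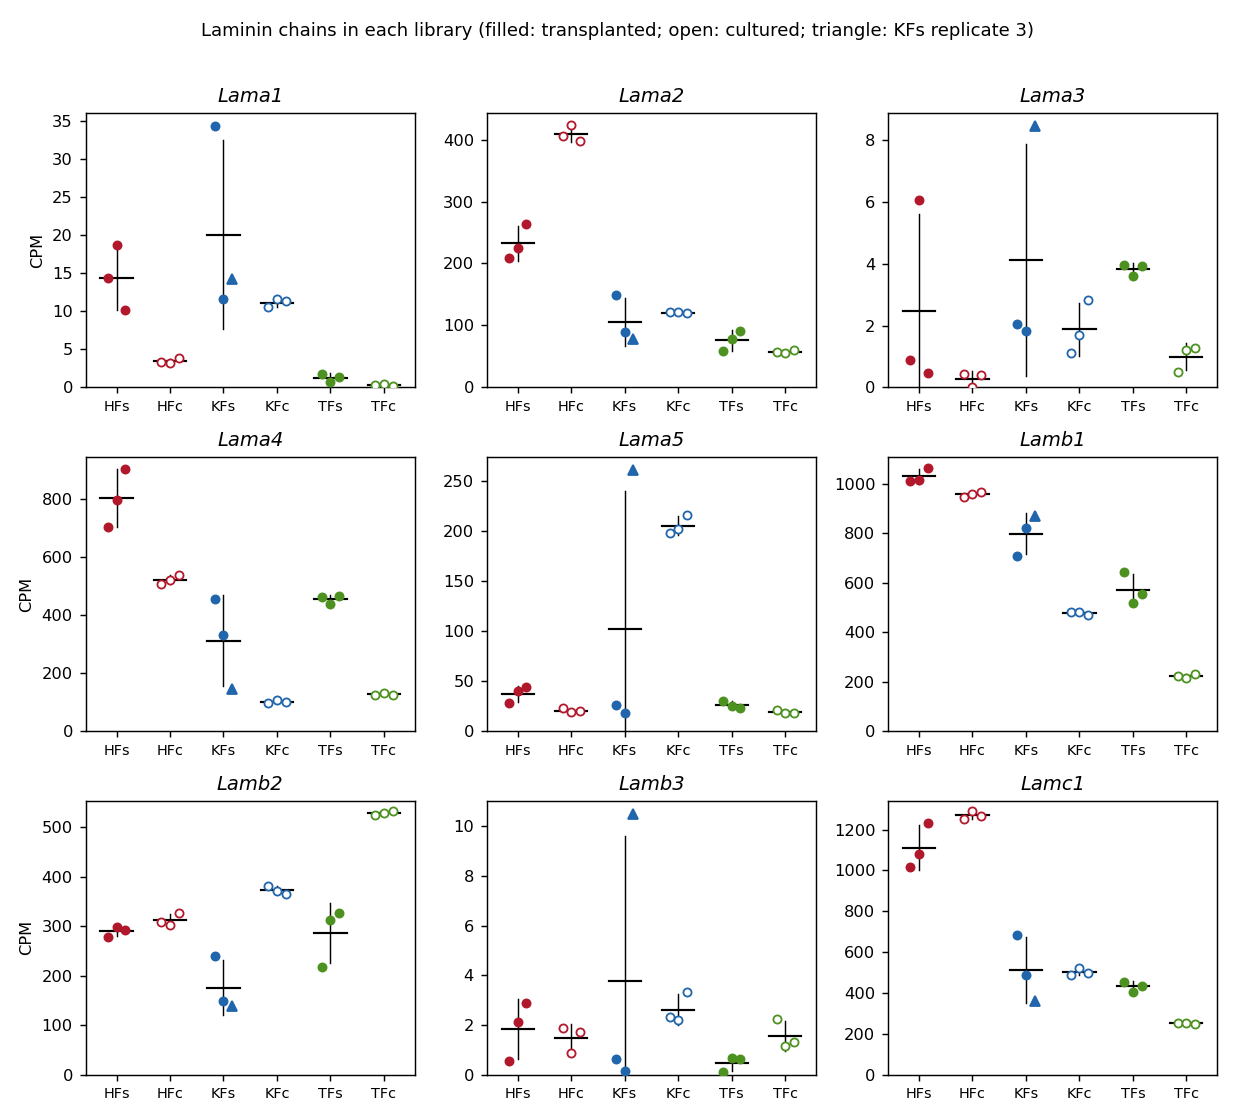
CPM (linear axis from 0) of the 9 laminin chain genes in every library, with 1 panel a gene and the 6 groups along the horizontal axis; filled symbols are transplanted cells, open symbols cultured cells, the triangle is KFs replicate 3, the short bar is the group mean and the vertical line is the mean ± SD (n = 3), cut at 0. Lama4 was higher after transplantation in all 3 organs, and Lama5 at 197.6 to 215.9 CPM in KFc was matched by a single transplanted library, KFs replicate 3 at 261.0 CPM.

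Transplanted cells were compared with the cultured cells of the same organ to ask what the laminin genes did in the new site. With edgeR's quasi-likelihood test, p-values adjusted over all genes by Benjamini-Hochberg, and a required log2 fold change past 1 in size, 2 of 9 members were called in the heart fibroblasts, both higher (Lama1 and Lama3), where 27.7% of all genes tested were called, 18.3% higher and 9.33% lower. In the kidney fibroblasts 1 was higher (Lama4) and 1 lower (Lamb2), at a background of 22.6%, of which 14.7% higher and 7.99% lower. In the tail fibroblasts 3 were higher (Lama1, Lama4 and Lamb1) and none lower, at a background of 16.5%, of which 11.0% higher and 5.53% lower. By adjusted p alone the counts were 4, 3 and 5 of 9, at backgrounds of 56.4%, 48.8% and 38.8%. The share of members called was thus near or below that of all genes in the heart and kidney cells, and 3 of 9 against 16.5% in the tail cells. The median log2 difference of the members was 0.33, 0.52 and 0.77 in heart, kidney and tail, and that of all genes 0.047, 0.093 and 0. Leaving out KFs replicate 3, 4 members were called in the kidney fibroblasts, Lama1 and Lama4 higher and Lama5 and Lamb3 lower, at a background of 23.2%. The same refit gave 2 in the heart cells, at 29.0%, and 4 in the tail cells, at 18.3%, where Lamb3 was added with a log2 difference of -1.71 and an adjusted p of 0.0402. Bulk libraries cannot tell fewer cells of a type from less RNA per cell.

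**Figure D2:**
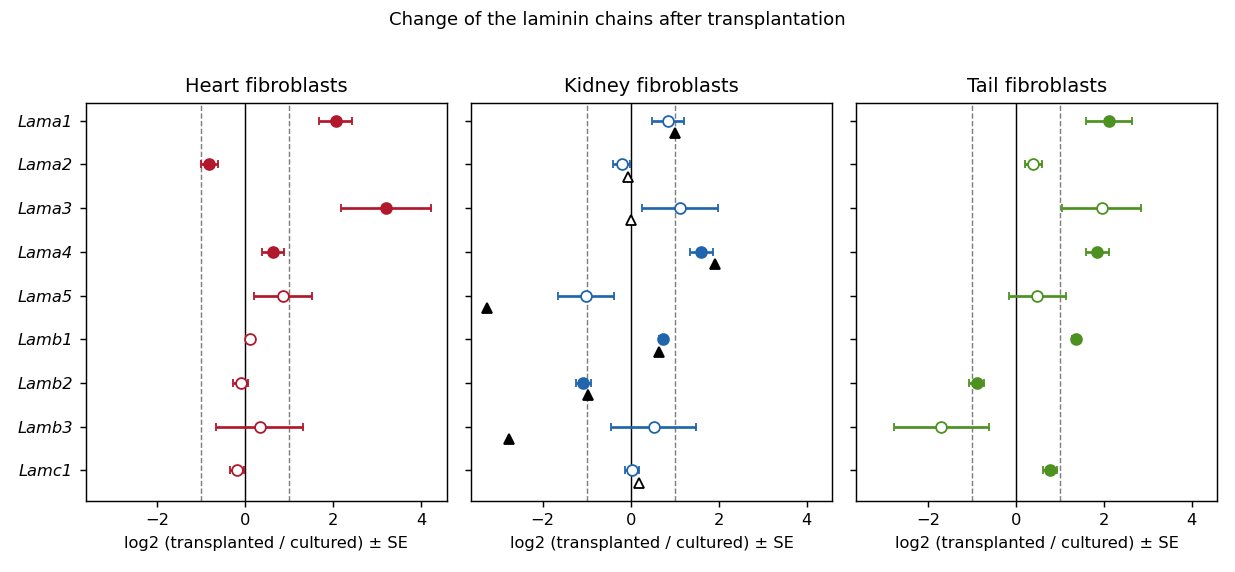
Log2 difference (transplanted over cultured, ± SE, 3 against 3 libraries) of the 9 chains in heart, kidney and tail fibroblasts. Circles are filled where the adjusted p was under 0.05, triangles in the kidney panel are the values without KFs replicate 3, and dashed lines mark log2 differences of -1 and 1; Lama4 lay to the right of 0 in each organ, and Lama5 and Lamb3 moved far to the left in the kidney panel once that library was left out.

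Lama4 (chr10:38965515-39110188, plus strand) encodes the alpha chain of laminins in vessel walls and mesenchyme, and was the most abundant alpha chain per kilobase in every group but KFc. Its level was 704.4, 797.0 and 904.5 CPM in HFs against 506.1, 521.6 and 538.1 CPM in HFc. It was 455.6, 332.4 and 144.8 CPM in KFs against 97.9, 105.5 and 101.3 CPM in KFc. In TFs it was 462.6, 439.4 and 464.4 CPM against 126.0, 130 and 124.2 CPM in TFc. Every transplanted library thus lay above every cultured library of its organ. The rise was 3.59-fold in the tail cells (log2 1.85, SE 0.261, adjusted p = 6.0e-05 in edgeR's quasi-likelihood test), 3.06-fold in the kidney cells (log2 1.61, SE 0.259, adjusted p = 0.000113) and 1.54-fold in the heart cells (log2 0.62, SE 0.253, adjusted p = 0.0476), the last under the limit on fold. In the refit without KFs replicate 3, which had the lowest Lama4 of the KFs libraries, the kidney value was log2 1.91 (edgeR adjusted p = 2.35e-09). That refit gave log2 0.64 (adjusted p = 5.26e-05) in the heart cells, still under the limit on fold, and 1.83 (adjusted p = 2.28e-09) in the tail cells. In order of means the groups ran HFs, HFc, TFs, KFs, TFc, KFc, and of these neighbours TFs and KFs alone overlapped.

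Lama2 (chr10:26980036-27619758, minus strand), whose loss in people and mice causes a muscular dystrophy, moved otherwise. It was 209.2, 224.9 and 263.7 CPM in HFs, below the 405.6, 424.0 and 398.3 CPM of HFc. In the kidney cells it was 149.5, 89.2 and 77.4 CPM in KFs around the 121.2, 121.3 and 119.9 CPM of KFc. Tail cells had 58.6, 77.6 and 91.7 CPM in TFs and 57.2, 55.7 and 59.6 CPM in TFc. The heart groups did not overlap and the ranges of the other organs did. The heart value fell by 0.82 on the log2 scale (SE 0.193, edgeR adjusted p = 0.0021), within the limit on fold, while the kidney value was -0.20 (SE 0.193, adjusted p = 0.417) and the tail value 0.40 (SE 0.194, adjusted p = 0.112). Without KFs replicate 3 the kidney value was -0.06 (adjusted p = 0.806). Both heart groups stood above all others, and the neighbours KFc, KFs, TFs and TFc overlapped in turn.

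Lama5 (chr2:180176373-180225859, minus strand), the alpha chain of mature epithelial and glomerular basement membranes, was high in a single group. KFc held 197.6, 202.1 and 215.9 CPM. KFs held 25.7, 18.5 and 261.0 CPM, the last in replicate 3, the library with 132.0 CPM of simple epithelium markers. That marker sum was 22.2 and 19.6 CPM in the other KFs libraries and 18.6 to 27.7 CPM in KFc, so it was alike where Lama5 differed. In the other groups Lama5 lay between 17.6 and 43.7 CPM. Replicate 3 was thus above every KFc library and the other KFs libraries were far below them. With all libraries the kidney difference was log2 -1.01 (SE 0.638, edgeR adjusted p = 0.204). It was -3.26 (adjusted p = 2.2e-09) without KFs replicate 3, at a mean of 22.1 CPM in the remaining KFs libraries against 205.2 ± 9.52 CPM (SD, n = 3) in KFc. The spread that this library brings is shared by all comparisons in the model. The heart difference, 37.2 ± 8.32 CPM in HFs against 20.5 ± 1.99 CPM in HFc (n = 3), had an adjusted p of 0.276 with it and 0.000131 without it (log2 0.86 and 0.88), and the tail difference an adjusted p of 0.586 and 0.0222 (log2 0.49 and 0.47), again in edgeR.

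Lama1 (chr17:67697259-67822647, plus strand), the alpha chain of the first embryonic basement membranes and of kidney tubules, was low, and most widely spread over the groups, with a 70.7-fold range of group means. HFs had 14.4, 18.7 and 10.1 CPM against 3.35, 3.25 and 3.83 CPM in HFc. KFs had 34.3, 11.6 and 14.2 CPM against 10.5, 11.6 and 11.3 CPM in KFc. TFs had 1.77, 0.681 and 1.40 CPM against 0.326, 0.392 and 0.131 CPM in TFc, which are 11, 10 and 3 counts. Transplanted libraries were higher without overlap in heart and tail. The rise was 4.15-fold in the heart cells (log2 2.05, SE 0.384, edgeR adjusted p = 0.000322) and 4.33-fold in the tail cells (log2 2.12, SE 0.526, adjusted p = 0.00512). The kidney difference was log2 0.85 (SE 0.362, adjusted p = 0.0649). It reached 1.00 (adjusted p = 0.0277) without KFs replicate 3 and 1.08 (adjusted p = 0.0199) without KFs replicate 2, so single libraries decided that call. Both refits kept KFs replicate 1, the highest at 34.3 CPM. KFs, HFs and KFc overlapped as neighbours, and HFc, TFs and TFc followed without overlap.

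Lama3 encodes the alpha chain of epidermal laminin and was near the detection floor of 3 counts in several libraries. HFs had 0.901, 6.08 and 0.455 CPM against 0.437, 0 and 0.393 CPM in HFc, where the library at 0 counts permits up to 0.0951 CPM of its total. KFs had 2.06, 1.83 and 8.45 CPM against 1.12, 1.71 and 2.82 CPM in KFc, and TFs 3.96, 3.59 and 3.94 CPM against 0.504, 1.22 and 1.27 CPM in TFc. Single libraries stood out in HFs (replicate 2) and KFs (replicate 3), and the TFs libraries were alike. The call in the heart cells (log2 3.19, SE 1.02, edgeR adjusted p = 0.0147) was lost without either of 2 libraries: without HFs replicate 2 it was log2 1.34 (adjusted p = 0.253), and without HFc replicate 2, the library at 0, it was 2.56 (adjusted p = 0.0513). HFs replicate 2 also held the highest sum of the proximal tubule markers, 1264 CPM against 158.9 and 122.9 CPM in the other HFs libraries, and the part of those cells in the value was not tested. The tail difference was log2 1.95 (SE 0.903, adjusted p = 0.0991) and the kidney difference 1.12 (SE 0.862, adjusted p = 0.299). Without KFs replicate 3 the kidney difference was log2 -0.0, at a mean of 1.94 CPM in KFs against 1.88 CPM in KFc. The neighbouring groups overlapped down to TFc, and HFc was below TFc.

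The beta chains Lamb1 (chr12:31265234-31329644, plus strand) and Lamb2 (chr9:108479736-108490530, plus strand) are alternatives for the same place in the trimer, the former the more widespread beta chain and the latter the beta chain of the glomerular filter and the neuromuscular junction. Their differences between states had opposite signs in every organ, with an edgeR adjusted p under 0.05 for both in kidney and tail and for neither in heart. The stretch just before each gene is shown for description, from the promoter windows of RefSeq on GRCm38.p6, ended where GENCODE places the first exon. The Lamb1 stretch is chr12:31265043-31265233 and the Lamb2 stretch chr9:108479612-108479735, both read 5′ to 3′ on the plus strand, and capitals mark the letters GGGCGG (GC box) and CCAAT on either strand.
Lamb1: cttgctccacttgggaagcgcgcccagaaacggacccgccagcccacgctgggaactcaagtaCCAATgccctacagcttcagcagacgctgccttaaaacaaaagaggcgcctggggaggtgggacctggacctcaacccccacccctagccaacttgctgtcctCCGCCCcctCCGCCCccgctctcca
Lamb2: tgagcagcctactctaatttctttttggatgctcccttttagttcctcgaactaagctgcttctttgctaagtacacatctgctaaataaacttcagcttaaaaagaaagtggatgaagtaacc
The Lamb1 stretch, of 191 bases, held 2 GC boxes, both as CCGCCC, and 1 CCAAT, and the Lamb2 stretch, of 124 bases, held neither. A link between these letters and the changes was not tested. In the full windows, 250 bases before to 50 after a start, GGGCGG was in 35.7% of 32851 RefSeq windows, CCAAT in 37.4%, TATAAA in 13.6% and TGANTCA, the AP-1 site, in 7.81%, all on both strands. Windows were found for 5 of the 9 members (Lama2, Lama5, Lamb1, Lamb2 and Lamb3). GGGCGG was in 3 of them, CCAAT in 1, and TATAAA and TGANTCA in none.

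Lamb1 was 1012, 1016 and 1066 CPM in HFs against 947.0, 957.0 and 966.9 CPM in HFc. It was 707.5, 819.6 and 869.9 CPM in KFs against 483.3, 480.4 and 468.1 CPM in KFc, and 642.0, 517.0 and 553.1 CPM in TFs against 221.4, 214.5 and 229.0 CPM in TFc. The transplanted libraries were the higher in every organ, by little in the heart cells. Lamb1 rose 2.58-fold in the tail cells (log2 1.36, SE 0.0925, edgeR adjusted p = 6.12e-08). It was 1.67-fold higher in the kidney cells (log2 0.74, SE 0.0912, adjusted p = 9.33e-06), under the limit on fold, and 1.08-fold in the heart cells (log2 0.11, SE 0.0907, adjusted p = 0.325). The kidney value without KFs replicate 3 was log2 0.64 (adjusted p = 1.03e-05). No neighbours overlapped in the order HFs, HFc, KFs, TFs, KFc, TFc.

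Lamb2 was 278.2, 299.1 and 293.2 CPM in HFs against 309.5, 302.1 and 326.9 CPM in HFc. It was 240.5, 148.1 and 139.5 CPM in KFs against 381.6, 371.3 and 365.7 CPM in KFc, and 216.8, 313.6 and 327.4 CPM in TFs against 523.9, 529.2 and 532.6 CPM in TFc. The transplanted libraries were the lower in every organ, again by little in the heart cells. Lamb2 fell by 1.08 on the log2 scale in the kidney cells (SE 0.173, edgeR adjusted p = 0.000109), and by 0.98 (adjusted p = 0.000198) without KFs replicate 3, where it no longer passed the limit on fold. The tail difference was -0.89 (SE 0.172, adjusted p = 0.00088), within that limit, and the heart difference -0.11 (SE 0.171, adjusted p = 0.609). The order was TFc, KFc, HFc, HFs, TFs, KFs, with overlap between HFs and TFs and between TFs and KFs.

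Lamb3 (chr1:193207699-193343878, plus strand) encodes the beta chain of epidermal laminin and had 2 to 262 counts a library. It was 0.646, 0.160 and 10.5 CPM in KFs against 2.31, 2.2 and 3.35 CPM in KFc, and all other libraries lay between 0.107 and 2.88 CPM. KFs replicate 3 was once more above, and the other KFs libraries below, all of KFc. The kidney difference was log2 0.52 with all libraries (SE 0.958, edgeR adjusted p = 0.679) and -2.77 (adjusted p = 0.00641) without that one, and -0.13 (adjusted p = 0.925) with the replicate number as a block, so its sign was not settled. In the tail cells it was -1.70 (SE 1.08, adjusted p = 0.228) and in the heart cells 0.33 (SE 0.991, adjusted p = 0.799).

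Lamc1 (chr1:153218922-153332786, minus strand), the gamma chain of most laminins, was 1019, 1080 and 1234 CPM in HFs against 1252, 1289 and 1268 CPM in HFc. KFs had 684.8, 488.6 and 363.4 CPM against 488.7, 520.5 and 498.1 CPM in KFc, and TFs 456.3, 406.0 and 434.1 CPM against 252.6, 255.5 and 251.0 CPM in TFc. The groups were apart in tail and, narrowly, in heart, and overlapped in kidney. In the tail cells Lamc1 was 1.71-fold higher after transplantation (log2 0.77, SE 0.157, edgeR adjusted p = 0.00124), within the limit on fold. The heart value was log2 -0.19 (SE 0.156, adjusted p = 0.305) and the kidney value 0.03 (SE 0.156, adjusted p = 0.898), or 0.18 (adjusted p = 0.189) without KFs replicate 3. Among 9 members, the groups did not overlap for 8 in heart, 3 in kidney and 8 in tail, where 67.3%, 51.2% and 60.4% of all genes tested did not.

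The share of each chain among the alpha chains, and among the beta chains, was then taken per library from CPM per kilobase of exon. Lama4 made up 77.5% ± 0.559 of the alpha chains in HFs against 61.4% ± 1.16 in HFc, and 83.5% ± 1.27 in TFs against 66.5% ± 1.10 in TFc (SD, n = 3). In KFc it was 23.9% ± 0.783, and 71.4%, 76.5% and 28.6% in the KFs libraries. Lama4 was thus the larger part after transplantation in every organ, by more than the SD of either group in heart and tail. Lama5 held 51.2% ± 1.12 in KFc and 4.27%, 4.52% and 54.7% in the KFs libraries. On this length KFs replicate 3 was thus near KFc and the other KFs libraries were not. The Lama5 share of KFc was lower with the longest transcript as length, as given at the end. Lama2 was 35.5% ± 1.13 in HFc and 16.6% ± 0.521 in HFs, and 22.3% ± 0.959 in TFc against 10.3% ± 2.10 in TFs.

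Lamb1 held 20.4% ± 0.488 of the beta chains in TFc and 55.2% ± 8.05 in TFs. It held 43.8% ± 0.269 in KFc and 73.2% ± 7.76 in KFs (70.8% without KFs replicate 3), and 65.1% ± 0.801 in HFc and 68.4% ± 0.870 in HFs. Lamb2 took nearly all of the rest, and Lamb3 at most 1.41% in any library. The sum of the beta chains per kilobase was 152.0 ± 4.14 CPM in HFs and 148.2 ± 2.90 CPM in HFc, 110.1 ± 2.72 CPM in KFs and 109.8 ± 1.99 CPM in KFc, and 104.6 ± 4.71 CPM in TFs and 109.5 ± 1.18 CPM in TFc. With the longest transcript as length, an alternative added after these sums were seen, it was 230.2 ± 6.30 and 221.3 ± 3.69 CPM in heart, 170.2 ± 6.35 and 149.3 ± 2.61 CPM in kidney and 149.6 ± 4.34 and 132.5 ± 1.70 CPM in tail, so whether the beta sum differed between states depended on the length used. The sum of the alpha chains was 45.2 ± 1.43 CPM in TFs against 15.8 ± 0.145 CPM in TFc, 85.7 ± 10.4 CPM in HFs against 70.5 ± 1.16 CPM in HFc, and 43.6 ± 8.58 CPM in KFs against 35.2 ± 1.03 CPM in KFc. These shares and sums are descriptions of RNA, with no test.

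**Figure D3:**
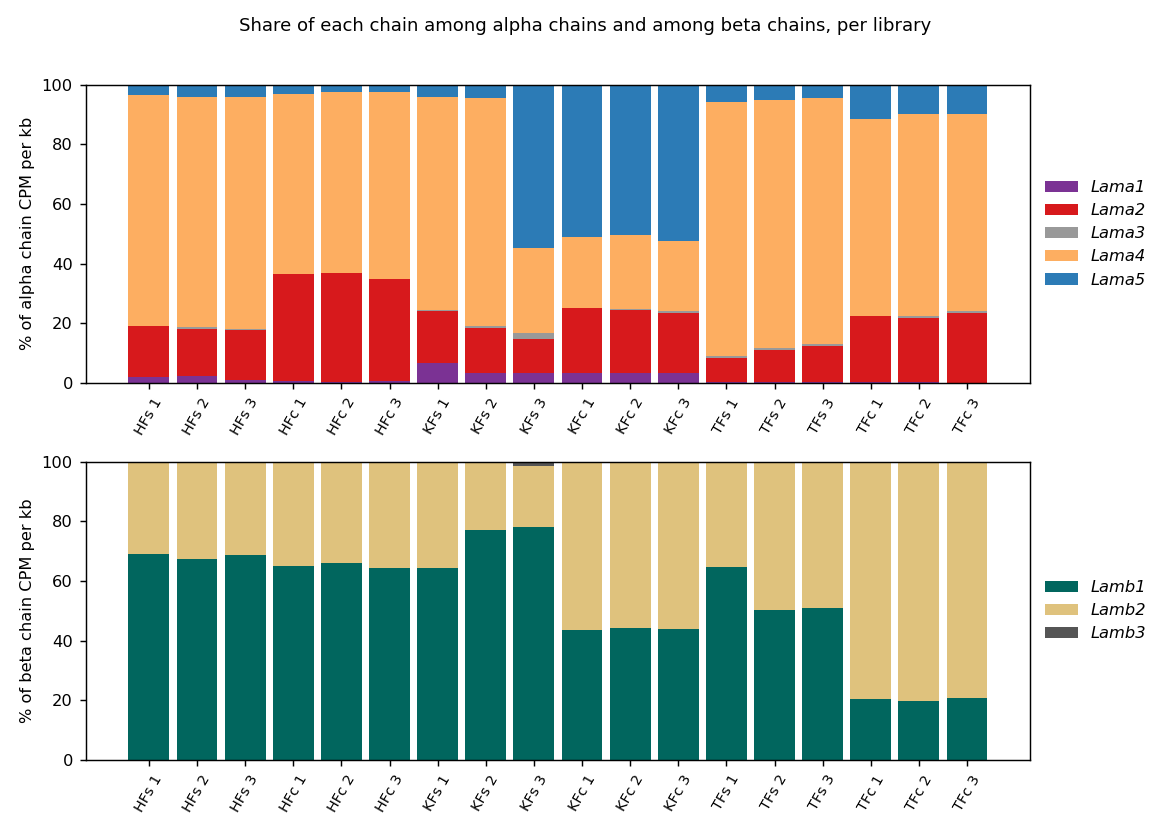
Share (%) of each chain in the summed CPM per kilobase of exon of the 5 alpha chains (top) and the 3 beta chains (bottom), 1 stacked bar a library, from 0 to 100%. Lama5 fills 50.3 to 54.7% of the alpha chains in KFc and KFs replicate 3 and at most 11.5% elsewhere, and Lamb1 fills 19.9 to 20.8% of the beta chains in TFc against 50.2 to 64.5% in TFs.

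Fibroblasts of different organs were compared within a state to ask how far the laminin genes differed by origin, by adjusted p alone. HFc exceeded TFc in 5 members and fell short in 1, where 41.9% of all genes were called (20.9% higher, 21% lower). KFc exceeded TFc in 5 and fell short in 1, at a background of 36.4% (17.8% and 18.5%), and HFc exceeded KFc in 4 and fell short in 2, at 29.2% (15.1% and 14%). After transplantation HFs exceeded TFs in 5, at a background of 23.1% (10.3% higher, 12.7% lower). KFs exceeded TFs in 3 and fell short in 1, at 29.1% (15.3% and 13.8%), and HFs exceeded KFs in 5, at 33.2% (14.2% and 19.0%). When KFs replicate 3 was left out these counts were 6 (48.6%), 7 (43.8%) and 7 (36.3%) in culture, and 7 (31.0%), 5 (35.1%) and 7 (38.8%) after transplantation. The share of members called was above the share of all genes in these 6 comparisons, with and without that library, but not for HFs against KFs when only these groups were fitted (0 of 9, where 5.75% of all genes were called). As comparisons within a state share groups, they are given side by side only.

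Heart fibroblasts exceeded tail fibroblasts in Lama1, Lama2, Lama4, Lamb1 and Lamc1. Lama1 was near the detection floor in TFc, at 11, 10 and 3 counts. Against TFc, HFc was 11.8-fold higher in Lama1 (log2 3.56, SE 0.492), 7.12-fold in Lama2 (2.83, SE 0.206), 5.02-fold in Lamc1 (2.33, SE 0.164), 4.32-fold in Lamb1 (2.11, SE 0.0945) and 4.12-fold in Lama4 (2.04, SE 0.262), with edgeR adjusted p from 1.67e-10 to 2.91e-05. Among the transplanted cells HFs exceeded TFs in these genes by 3.50 (SE 0.424), 1.61 (SE 0.197), 1.36 (SE 0.159), 0.85 (SE 0.0914) and 0.82 (SE 0.254) on the log2 scale, with adjusted p from 6.62e-06 to 0.0292. The last, Lama4, lost its call in 5 of 6 refits that left out an HFs or TFs library, all but HFs replicate 1 (adjusted p 0.0668 to 0.0928). Those refits kept KFs replicate 3 in the shared estimate of spread. Without KFs replicate 3 the Lama4 difference was 0.83 (edgeR adjusted p = 1.16e-05). Lamb2 was lower in HFc than in TFc (log2 -0.76, SE 0.172, adjusted p = 0.00226) and at 0.02 (SE 0.171, adjusted p = 0.949) between HFs and TFs.

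Against the tail, cultured kidney cells differed most in Lama1 and Lama5. The Lama1 ratio is set against only 11, 10 and 3 counts in the TFc libraries. KFc was 37.8-fold higher than TFc in Lama1 (log2 5.24, SE 0.490, edgeR adjusted p = 9.32e-07), 11.0-fold in Lama5 (3.45, SE 0.701, adjusted p = 0.00129), 2.15-fold in Lamb1, 2.10-fold in Lama2 and 1.99-fold in Lamc1 (adjusted p = 2.82e-07, 0.00054 and 0.000172). The simple epithelium markers summed to 18.6 to 27.7 CPM in KFc, 4.78 to 5.02 CPM in TFc and 2.46 to 3.28 CPM in HFc. Against TFc, 4 of the 5 tested were called up in KFc and none down. Other lists differed too. The smooth muscle and pericyte sum was 7692 to 7834 CPM in KFc and 1576 to 1651 CPM in TFc. Of these 6 markers 5 were up and 1 was down. The macrophage and leukocyte sum was 147.2 to 165.5 CPM in KFc and 50.5 to 55.0 CPM in TFc. Of these 5 markers 3 were up and none down. The part of any of these cell types in the Lama5 value was not tested. Lamb2 was lower at log2 -0.50 (adjusted p = 0.0312), and missed the threshold in each of the 6 refits without a KFc or TFc library (0.0659 to 0.0965). Lama4 was -0.32 (adjusted p = 0.351), and -0.29 (adjusted p = 0.0301) without KFs replicate 3. KFs was higher than TFs in Lama1 (log2 3.97, SE 0.428, adjusted p = 8.37e-06) and Lamb1 (0.49, SE 0.0909, adjusted p = 0.000985) and lower in Lamb2 (-0.70, SE 0.172, adjusted p = 0.00648), and without KFs replicate 3 by 4.17, 0.42 and -0.56 (adjusted p = 2.01e-06, 0.001 and 0.0189). With only these groups fitted, Lamb1 and Lamb2 lost their calls (adjusted p = 0.112 and 0.169). Lama5 was called higher in KFs than in TFs at 1.95 (SE 0.664, adjusted p = 0.0372). That call rested on KFs replicate 3, without which the difference was -0.25 (adjusted p = 0.298), and was also lost without TFs replicate 1, 2 or 3 (adjusted p 0.0688 to 0.119). Lama2 and Lamc1 were called in its place, at 0.65 (adjusted p = 0.0108) and 0.44 (adjusted p = 0.00572), and Lama4 at -0.93 (adjusted p = 0.00569) without KFs replicate 1.

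Between heart and kidney in culture, Lama4 (log2 2.36, SE 0.265), Lama2 (1.76, SE 0.197), Lamc1 (1.34, SE 0.159) and Lamb1 (1.00, SE 0.0916) were higher in HFc, and Lama5 (-3.32, SE 0.697) and Lama1 (-1.68, SE 0.380) higher in KFc, with edgeR adjusted p from 8.32e-07 to 0.00347. Lama3 lay at the threshold (log2 -2.80, SE 1.02, adjusted p = 0.05, just over it), and at 0.0219 without KFs replicate 3. HFs exceeded KFs in Lama4 (1.37, SE 0.256), Lama2 (1.14, SE 0.195), Lamc1 (1.12, SE 0.158), Lamb2 (0.72, SE 0.172) and Lamb1 (0.37, SE 0.0908), with adjusted p from 9.63e-05 to 0.00591. These 5 were 1.04, 0.98, 0.93, 0.59 and 0.45 without KFs replicate 3 and were still called. All 5 lost the call when only HFs and KFs were fitted (adjusted p 0.0556 to 0.161), and Lamb1 also with library totals alone (0.266). Lama5 turned from -1.45 (adjusted p = 0.101) to 0.77 (adjusted p = 0.00256), and Lamb3 from -1 (adjusted p = 0.464) to 2.26 (adjusted p = 0.0275), when that library was left out. Lama5 was at -1.90 and -1.92 (adjusted p = 0.021 and 0.016) when KFs replicate 1 or 2 was left out instead, and Lama3 at -2.59 (adjusted p = 0.0463) without HFs replicate 2, against -0.72 (adjusted p = 0.557).

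**Figure D4:**
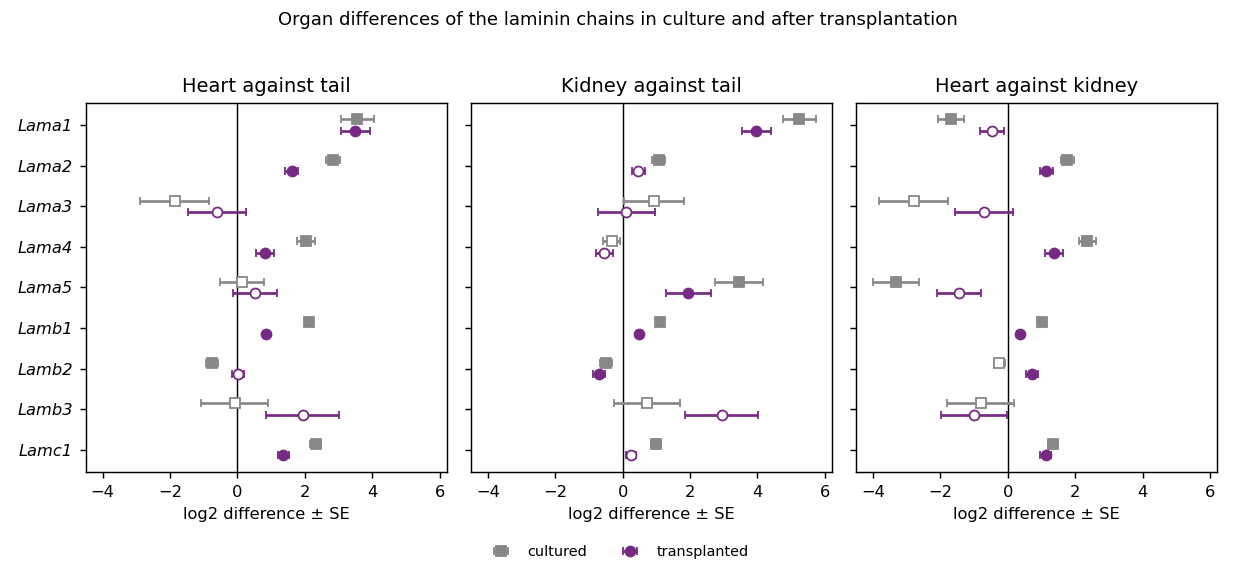
Log2 difference (± SE) of each chain between organs, in culture (grey squares) and after transplantation (purple circles), for heart over tail, kidney over tail and heart over kidney; symbols are filled where the adjusted p was under 0.05. For heart over tail, Lama2, Lama4, Lamb1 and Lamc1 lie at 2.04 to 2.83 in culture and at 0.82 to 1.61 after transplantation.

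Whether the organs differed in their change was tested as an interaction. The heart change differed from the tail change for 5 of 9 members, where 22.8% of all genes were called (10.1% more upward and 12.7% more downward in heart): Lamb1 by -1.26 on the log2 scale (SE 0.129, edgeR adjusted p = 1.04e-05), Lama4 by -1.23 (SE 0.358, adjusted p = 0.0222), Lama2 by -1.22 (SE 0.274, adjusted p = 0.00514), Lamc1 by -0.97 (SE 0.221, adjusted p = 0.00582) and Lamb2 by 0.78 (SE 0.242, adjusted p = 0.0304). The first 4 moved less upward, or downward, in the heart cells, and Lamb2 fell less. Of these, Lama4 missed the threshold without HFs replicate 1 or 2 or TFc replicate 2 or 3 (adjusted p 0.0515 to 0.072), and Lamb2 without HFs replicate 2, HFc replicate 1 or 2, TFs replicate 1 or any TFc library (0.0538 to 0.0757). These refits kept KFs replicate 3, and without that library Lama4 had an adjusted p of 1.68e-05 and Lamb2 of 0.0085. The kidney change differed from the tail change for 2 of 9 (background 11.1%, of which 4.99% upward and 6.07% downward), Lamb1 by -0.62 (SE 0.129, adjusted p = 0.00594) and Lamc1 by -0.74 (SE 0.221, adjusted p = 0.0415). Lamc1 there missed the threshold in 10 of the 12 refits without 1 of the libraries compared (adjusted p 0.0634 to 0.0912), all but those without KFs replicate 1 or 3. The heart and kidney changes differed for 2 of 9 (background 26.2%, of which 10.7% upward and 15.5% downward), Lamb1 by -0.64 (SE 0.128, adjusted p = 0.00212) and Lamb2 by 0.97 (SE 0.243, adjusted p = 0.00806). The counts were, without KFs replicate 3, 5 (background 32.3%), 3 (21.4%) and 6 (35.2%), and Lama5 then differed in kidney against tail by -3.73 (adjusted p = 9.77e-08) and in heart against kidney by 4.14 (adjusted p = 6.47e-08). Without KFs replicate 1, Lama1 and Lama2 were called in kidney against tail at -1.90 (adjusted p = 0.0191) and -0.94 (adjusted p = 0.00468), and Lama1 in heart against kidney at 1.84 (adjusted p = 0.00404).

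The genes that work with laminins were read from 3 lists, with the gamma chain gene Lamc3 beside them. Of 10 laminin receptors, 1 rose and 2 fell in the heart cells, 2 rose and 2 fell in the kidney cells, and 1 rose and 1 fell in the tail cells, where 27.7%, 22.6% and 16.5% of all genes were called. Itga2, an integrin alpha chain of collagen and laminin receptors, rose in all 3 (log2 2.38, 1.66 and 2.01). The kidney value was 0.41 (adjusted p = 0.369) without KFs replicate 3. Cd151, a membrane protein that holds laminin-binding integrins together, fell by 2.14 in heart and 1.59 in kidney and Bcam, a receptor of the Lama5 product, fell by 1.29 in heart. Itga1 fell by 1.01 in kidney, and Itga3, the alpha chain of an epithelial laminin receptor, fell by 2.59 in tail (edgeR adjusted p 1.7e-06 to 0.0404 for these calls). Itgb4, the beta chain of hemidesmosomes, was called higher in KFs than in KFc at 2.32 (adjusted p = 0.04). It held 66.1 CPM in replicate 3 and 2.71 and 2.11 CPM in the others, against 3.91 to 5.58 CPM in KFc, and was -1.01 (adjusted p = 0.0256) without replicate 3. No receptor rose and 5 of 10 fell in the kidney cells without that library, where 23.2% of all genes were called.

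Of 14 partners of laminin in the basement membrane, 3 rose and none fell in the heart cells, 3 rose and 4 fell in the kidney cells, and 7 rose and 1 fell in the tail cells, against the same 27.7%, 22.6% and 16.5%. The largest rises in heart were Fbln1, a fibulin of elastic and basement membrane matrix, at log2 3.68 (SE 0.467, edgeR adjusted p = 8.8e-06) and Col18a1, the source of endostatin, at 1.94 (SE 0.364, adjusted p = 0.000333). In kidney they were Fbln1 at 2.74 (SE 0.450, adjusted p = 0.000141) and Agrn, the heparan sulphate proteoglycan agrin, at 1.45 (SE 0.498, adjusted p = 0.025), and the largest falls Ntn4, a netrin that binds laminin, at -2.50 (SE 0.201, adjusted p = 1.56e-07) and the collagen chain gene Col4a6 at -1.69 (SE 0.277, adjusted p = 0.000134). In tail they were Col4a3, a chain of glomerular type IV collagen, with 139, 66 and 85 counts in TFs against 7, 1 and 0 in TFc (log2 5.52, SE 1.91, adjusted p = 0.0324), and Col18a1 at 4.46 (SE 0.406, adjusted p = 9.32e-07), and the fall was Col4a5 at -1.01 (SE 0.154, adjusted p = 0.000116). In the refit without KFs replicate 3 the kidney counts were 1 up and 6 down, Fbln1 stood at 3.15 (adjusted p = 7.3e-08) and Agrn at -0.01 (adjusted p = 0.988). That refit gave 6 partners up in heart and 8 in tail, and 29.0%, 23.2% and 18.3% of all genes were called in it in heart, kidney and tail.

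Among 12 genes of the sugar chain by which dystroglycan binds laminin, 1 was called, Pomgnt1 in the heart cells (log2 -1.11, SE 0.111, edgeR adjusted p = 9.17e-07). None was called in the kidney or tail cells, and the shares of all genes in heart, kidney and tail were 27.7%, 22.6% and 16.5%. The kidney and tail values of Pomgnt1 were -0.90 and -0.70 (adjusted p = 9.57e-06 and 0.000161), within the limit on fold. Pomgnt2, outside the naming rule, was called in the kidney cells at -1.17 (adjusted p = 0.000535) only without KFs replicate 3. The list's medians were -0.39, -0.42 and -0.38 in heart, kidney and tail. Lamc3, a gamma chain of brain and testis, had at most 17 counts in any library and differences of -0.22, 1.06 and 0.29 (adjusted p = 0.873, 0.411 and 0.835).

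Between organs, where 41.9%, 36.4% and 29.2% of all genes were called in culture (heart-tail, kidney-tail, heart-kidney) and 23.1%, 29.1% and 33.2% after transplantation, the same lists gave the following counts. Of 10 receptors, HFc exceeded TFc in 4, KFc in 6, and HFs and KFs exceeded TFs in 6 and 8, with none lower. HFc exceeded KFc in none and fell short in 2, and HFs exceeded KFs in 2 and fell short in 4. Of 14 partners, 8 lay above and 1 below TFc in HFc, 10 and 1 in KFc, and 6 and 2 lay above and below TFs in HFs, 8 and 3 in KFs. Heart against kidney gave 5 higher and 3 lower in culture and 7 and 2 after transplantation. Of 12 glycosylation genes, 5 lay above and 3 below TFc in HFc, 2 and 2 in KFc, 1 and 1 in HFs against TFs and 3 and 2 in KFs against TFs, and 2 and 1 were higher, with none lower, in heart than in kidney before and after transplantation. With KFs replicate 3 left out, 48.6%, 43.8% and 36.3% of all genes were called in culture and 31.0%, 35.1% and 38.8% after transplantation. The receptors then gave 8 higher and 2 lower in HFc against TFc, 10 and 0 in KFc against TFc and 1 and 3 in HFc against KFc. They gave 7 and 0 in HFs against TFs, 6 and 1 in KFs against TFs and 4 and 3 in HFs against KFs. The partners gave 13 and 1, 11 and 2, 6 and 4, 7 and 2, 6 and 3, and 9 and 1 in the same order, and the glycosylation genes 5 and 4, 2 and 3, 2 and 1, 2 and 1, 3 and 2, and 2 and 0. In the interactions, heart-tail, kidney-tail and heart-kidney, 22.8%, 11.1% and 26.2% of all genes were called. The receptors gave 0 higher and 2 lower, 0 and 1, and 2 and 0, and the partners 1 and 4, 0 and 5, and 5 and 0. In the refit without KFs replicate 3 the shares of all genes were 32.3%, 21.4% and 35.2%. The receptors then gave 1 and 4, 0 and 6, and 6 and 0, and the partners 2 and 6, 2 and 10, and 9 and 1.

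Finally, the 3 genes with the most similar pattern to each member were taken by Pearson's r of log2(CPM + 1) over the 18 libraries, which share their groups, so that r mostly follows the 6 group means. They were Rtn1 (0.983), Klhl6 and Serpini1 for Lama2, Acvrl1 (0.970), Serpini1 and Lama2 itself (0.959) for Lamc1, Atp8b1 (0.969), Fndc1 and Dpt for Lama4, and Boc (0.968), Olfm1 and Fam53b for Lamb2. Lamb1 was nearest to Sox5 (0.962), Gm38399 and Gprc5b, Lama1 to Meis2 (0.958), Lrrn2 and Olr1, and Lama5 to Pax2 (0.948), Sema4d and Crisp1. For the low genes they were Ppip5k1 (0.916), St14 and Dgke for Lamb3 and Cldn2 (0.910), Clmn and Dlec1 for Lama3. Without KFs replicate 3 the nearest gene was another for Lama4 (Fndc1, 0.973), Lama5 (Cldn4, 0.963) and Lamb3 (Plpp6, 0.848). Among members, r was highest for Lama2 with Lamc1 and Lamb1 with Lamc1 (0.856) and lowest for Lamb1 with Lamb2 (-0.706, and -0.737 without KFs replicate 3).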

How the data were processed

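The authors trimmed the reads (75 bp, single end, stranded total RNA), aligned them with Bowtie2 through RSEM to GRCm38 and deposited gene-level expected counts, here whole numbers and not normalized. The submitters' processing notes name Bowtie, RSEM and mm9, so the sources give the build in 2 ways. Identifiers were matched to GENCODE mouse release 21 (GRCm38), which lacked 1317 of them (0.277% of counts). Counts were fitted in R 4.3.3 with edgeR 4.0.16 on all 18 libraries (filterByExpr, TMM, glmQLFit, glmQLFTest, 1 mean a group, Benjamini-Hochberg over 16577 genes). State comparisons used an adjusted p under 0.05 and a log2 fold change past 1, organ comparisons and interactions the adjusted p alone. SE is the fold change over the root of the F statistic. Alternatives were DESeq2 1.42.0, other scalings, no filter, fewer samples and a replicate block. The members and lists were chosen with earlier results of these data known. Named are all members, the largest 2 rises and 2 falls among the called genes of each list, and the 3 genes most similar to each member. A further result is not reported here. The fit was tested on simulated counts. Figures used Python 3.11.15 with matplotlib 3.10.9.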

Additional observations from a re-analysis of the deposited data

Results flagged for a closer look

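Differences between organs in the change after transplantation were past the threshold for 9 member results in edgeR's quasi-likelihood interaction test. Heart against tail gave Lama2 -1.22 (changes of -0.82 and 0.40 on the log2 scale), Lama4 -1.23 (0.62 and 1.85), Lamb1 -1.26 (0.11 and 1.36), Lamb2 0.78 (-0.11 and -0.89) and Lamc1 -0.97 (-0.19 and 0.77). Kidney against tail gave Lamb1 -0.62 (0.74 and 1.36) and Lamc1 -0.74 (0.03 and 0.77). Heart against kidney gave Lamb1 -0.64 (0.11 and 0.74) and Lamb2 0.97 (-0.11 and -1.08). Without KFs replicate 3 the heart interactions with tail were -1.18, -1.19, -1.22, 0.81 and -0.93 in the same order. That library is in none of the groups they compare and enters only through the shared fit, so this refit cannot test them. In refits without a library of the groups compared, Lama4 and Lamb2 in heart against tail and Lamc1 in kidney against tail lost their calls in several cases, as given above.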

How the results depend on the processing

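Of 48 single-gene calls over 12 comparisons, 33 were called under every alternative. The counts of members called moved by more than 1.5 times as follows. Without a limit on fold, 4 were called in the heart and 5 in the tail. With only the groups compared in the fit, 5 were called in TFs against TFc, 1 in KFs against TFs, 0 in HFs against KFs and 1 in the kidney-tail interaction, where 18.9%, 7.47%, 5.75% and 8.04% of all genes were called. For HFs against KFs 5 members then had an unadjusted p under 0.05 in edgeR, and DESeq2 on all libraries called 5. The kidney-tail interaction had 1 call with no filter, and library totals alone gave 4 in the heart-kidney interaction; the cause was not tested. DESeq2 gave no adjusted p for Lama5. Leaving out 1 library of the groups compared gave 1 to 2 calls in HFs against HFc, 2 to 4 in KFs against KFc, 3 in TFs against TFc, 6, 5 and 6 in culture (HFc-TFc, KFc-TFc, HFc-KFc), 4 to 5, 3 to 6 and 5 to 7 after transplantation (HFs-TFs, KFs-TFs, HFs-KFs), and 3 to 5, 1 to 4 and 2 to 6 in the heart-tail, kidney-tail and heart-kidney interactions. Values turned sign with a call on either side only without KFs replicate 3, and the range over single libraries left out was -2.77 to 1.03 for Lamb3 in KFs against KFc, -0.25 to 2.44 for Lama5 in KFs against TFs, -1.92 to 0.77 for Lama5 and -1.54 to 2.26 for Lamb3 in HFs against KFs, and -0.69 to 3.12 for Lamb3 in the heart-kidney interaction. With no call on either side, signs also turned under other settings, among them the replicate block for Lamb3 in KFs against KFc (-0.13) and in the heart-kidney interaction (0.30). Same-numbered libraries showed little correlation of their deviations from the group means (r over 0.1 in 1 of 27 pairs). This cannot exclude a shared donor or culture behind a replicate number. The replicate block gave 1 call in the kidney-tail interaction.

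With the longest transcript as length in place of the union of exons, Lama4 held 81.9% (HFs), 65.8% (HFc), 34.5% (KFc), 87.6% (TFs) and 73.0% (TFc) of the alpha chains, and Lamb1 77.4% (HFs), 74.8% (HFc), 81.1% (KFs), 55.3% (KFc), 66.0% (TFs) and 28.9% (TFc) of the beta chains. By the longest transcript Lama5 in KFc had 17.4 to 19.0 CPM per kilobase of an alpha sum of 48.7 CPM, a share below the 51.2% found by exon union. In KFs replicate 3 Lama4 (23.9 CPM) then exceeded Lama5 (22.9 CPM). By exon union, leave-one-out shares of Lama4 spanned 77.3% to 77.8% (HFs), 60.7% to 61.7% (HFc), 50% to 73.9% (KFs), 23.5% to 24.3% (KFc), 82.8% to 84.0% (TFs) and 65.9% to 66.9% (TFc), and of Lamb1 68.1% to 68.9%, 64.7% to 65.5%, 70.8% to 77.7%, 43.7% to 43.9%, 50.5% to 57.7% and 20.2% to 20.7%. Depth limits Lama1 in TFc, Lama3 and Lamb3, which had as few as 3, 0 and 2 counts in a library.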
